A study of Mus musculus with 6 samples.

Results

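The cells described here are the 75 cells of the control (CO) mouse uterus that the study's authors named pericytes. They were taken from the authors' cell annotation as the CO cells of that type that passed the authors' quality filter and have counts. They are 75 of 12253 annotated CO cells, of 32387 CO cells and of 48699 cells in all. No cell of the diethylstilbestrol (DES) library carries this name. Among annotated CO cells other than mesothelial and epithelial cells, pericytes made up 2.67% (95% Clopper-Pearson interval 2.11 to 3.34%), and among pericytes and endothelial cells together they were 75 of 416 cells (14.5 to 22.1%). All intervals given here cover counting error only.

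Pericytes are contractile support cells that lie within the basement membrane of capillaries and small venules, wrapped around the endothelial tube, and together with vascular smooth muscle cells they form the mural cells of blood vessels. Endothelial cells recruit them by releasing PDGF-B, which binds the receptor Pdgfrb on the pericyte, and Notch3 receives signals from Notch ligands on neighbouring vessel cells. In the uterus they sit in a vessel bed that grows and regresses with the reproductive cycle and with pregnancy.

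The study asked how estrogen exposure after birth changes the adult uterus. CD-1 mice were dosed on days 1 to 5 after birth, CO mice with corn oil and DES mice with the synthetic estrogen at 1 mg/kg/day, and their uteri were studied at an age of 12 months. The study chose CO mice in estrus, since adult DES mice stay in estrus. Single cells were measured with the 10x Genomics 3′ assay in 1 CO library pooled from 2 mice and 1 DES library pooled from 4 mice. Spatial RNA was measured with Visium in 2 sections of each group, named A and B, each from 1 mouse. With 1 pooled library per condition no value from the single cells can be tested between mice, and all of those comparisons are descriptions.

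The 75 pericytes held 352514 unique molecular identifiers (UMIs, each standing for 1 captured RNA molecule). A pericyte had between 2248 and 18887 of them, the median cell being at 3920 UMIs and 1744 genes. This depth was below that of myocytes (85 cells, median 11282), stromal cells (1326 cells, 8726.5) and endothelial cells (341 cells, 6309), and close to that of lymphocytes (4033). Mitochondrial genes took between 1.50 and 17.6% of the UMIs of a pericyte, with a median of 7.88%, against 8.72% in myocytes and 7.48% in stromal cells. The CO and DES libraries shared 180 cell barcodes, and 1 of the 75 pericyte barcodes was among them. Levels below are in CPM, the UMIs of a gene summed over the cells of a type and scaled to a total of 1000000 UMIs for that type. Shares of cells are given after thinning every cell to 3000 UMIs, which 63 pericytes, 84 myocytes, 1303 stromal cells and 322 endothelial cells reached.

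The 4 genes that mark this cluster in the study were first checked cell by cell. Rgs5, a GTPase-activating protein that shortens signalling from G protein-coupled receptors, had at least 1 UMI in 72 of the 75 cells, with a lowest, median and highest count of 0, 24 and 82 UMIs per cell. Its level was 5143 CPM (4909 to 5385), against 100.3 CPM in myocytes, 14.1 in stromal cells and 14.8 in endothelial cells. By UMIs Rgs5 ranked 16 among all genes in pericytes, and 5 once mitochondrial and ribosomal protein genes were set aside. After thinning, 96.8% of pericytes had an Rgs5 UMI, against 7.14% of myocytes, 1.07% of stromal cells, 0.621% of endothelial cells and 0.476% of mesothelial cells, which are not vascular. Rgs5 was thus present in nearly every annotated pericyte and in few cells of the other types.

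Ndufa4l2, a low-oxygen paralog of a respiratory chain subunit, was found in 64 cells, with a median of 3 and at most 9 UMIs, and stood at 769 CPM (680 to 866), against 22.9 in stromal cells and 6.38 in myocytes. Notch3 was found in 49 cells at no more than 3 UMIs per cell, and its level was 227 CPM (180 to 282). The 85 myocytes held no Notch3 UMI, so the ratio to them was at least 83.0-fold when the whole group was set to a floor of 3 UMIs. Rgs4, a second member of the RGS family, was found in 35 cells at no more than 6 UMIs, also at 227 CPM, against 33.4 in stromal cells and 19.1 in myocytes. A UMI of at least 2, 3 or 4 of these genes was found in 65, 55 and 28 pericytes, respectively. These genes were part of how the cluster was named, so their levels check the label and are not a result.

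Genes known from mural cells of other tissues were then compared. Of 23 such genes other than the 4 markers, 21 were abundant enough to be compared with all 12178 other annotated CO cells, and 18 were at least 4-fold higher in pericytes, while 6.17% of all 3682 genes compared were. Only Anpep, an aminopeptidase, was at least 4-fold lower among the 21, against 2.82% of all genes. Its level was 39.7 CPM in pericytes and 343 CPM in CO epithelial cells. Against myocytes, 12 of 20 genes were higher and 2 lower, where 6.83% and 3.02% of all genes were. Against stromal cells 15 of 20 were higher and 0 lower (5.39% and 4.94% of all genes), and against endothelial cells 16 of 20 were higher and 0 lower (7.65% and 9.59%). The cluster was formed on these counts, so nothing is read from the shares beyond the levels themselves. Here and in the lists below, a gene under 50 CPM in the other group could be compared only through its pericyte level. Counts of list members called higher are therefore descriptions and no result. A gene under 50 CPM in pericytes could likewise be compared only through the other group, so the same holds for counts called lower. Of the 183441856 UMIs of the other annotated cells, 83100966 were mesothelial and 78801159 epithelial. The median log2 ratio of the list was 6.52 against other annotated cells, 4.50 against myocytes, 6.37 against stromal cells and 6.23 against endothelial cells, beside −0.01, 0.17, 0.15 and −0.07 for all genes compared.

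**Figure D1:**
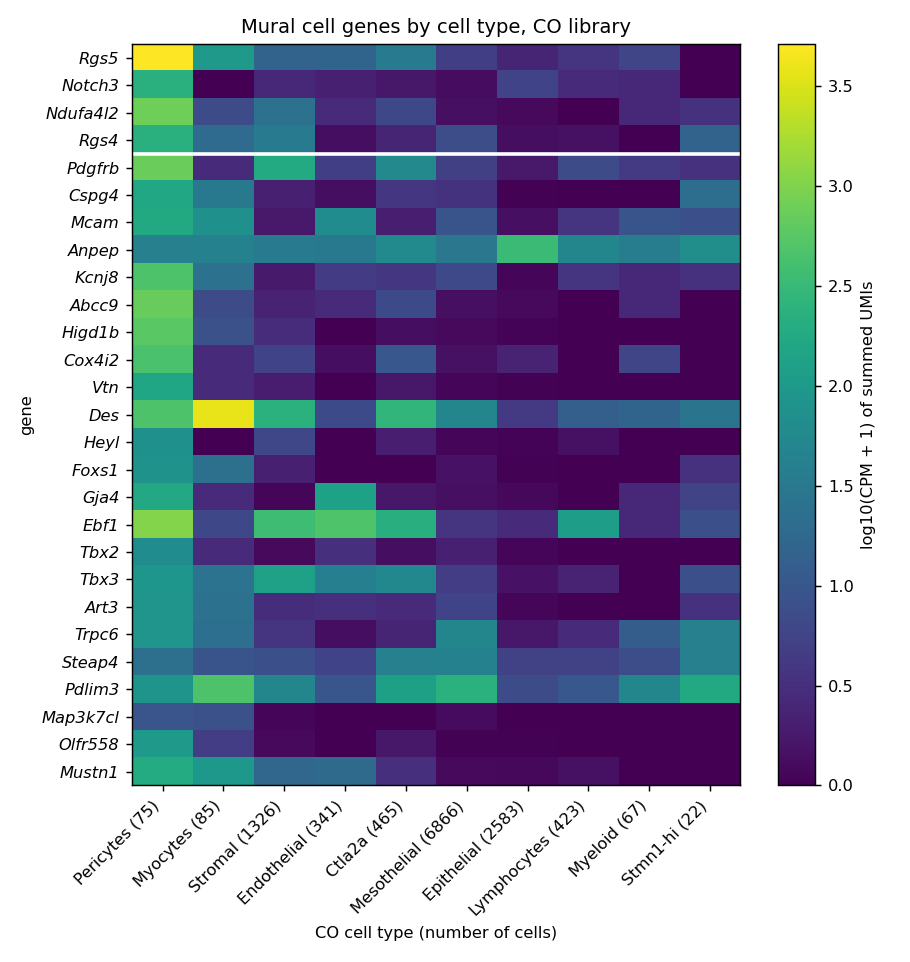
Level of the 4 markers (above the white line) and of 23 mural cell genes in the 10 annotated CO cell types, as log10 of CPM of summed UMIs plus 1 (color), with the number of cells of each type in brackets. Pericytes are the brightest column for most genes, Rgs5 reaches 5143 CPM there, and Des is brighter in myocytes, Anpep in epithelial cells.

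Receptors and surface proteins of mural cells differed in how far they set pericytes apart. Pdgfrb, the receptor for PDGF-B, was found in 68 pericytes at a median of 3 UMIs and stood at 738 CPM. Stromal cells also carried it, at 185 CPM, so the ratio was 3.99 (3.49 to 4.54), whereas endothelial cells had 3.80 CPM. Cspg4, the NG2 proteoglycan, stood at 159 CPM in 34 pericytes and at 31.0 CPM in myocytes. Mcam, an adhesion protein of vessel walls, was found in 37 pericytes at 179 CPM, beside 71.1 CPM in myocytes and 62.4 CPM in endothelial cells. Gja4, a connexin, was shared with endothelial cells at 173 and 133 CPM, and the interval of that ratio, 0.976 to 1.72, held 1. Ebf1, a transcription factor, stood at 1064 CPM in 71 pericytes, 480 CPM in endothelial cells, 356 CPM in stromal cells and 5.47 CPM in myocytes.

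The genes of the ATP-sensitive potassium channel were among those with the highest ratios. Kcnj8, its pore, was found in 59 pericytes at up to 8 UMIs and stood at 471 CPM, against 23.7 CPM in myocytes and 0.852 in stromal cells. Abcc9, the sulfonylurea receptor that forms the channel with the pore, was found in 57 pericytes at up to 21 UMIs and stood at 695 CPM, against 6.38 and 1.28 CPM. The channel opens when cellular ATP falls and relaxes the cell. Higd1b, a mitochondrial membrane protein, was found in 56 pericytes at 576 CPM. No Higd1b UMI was found in 341 endothelial cells, so its ratio to them was at least 505-fold against that floor. Cox4i2, a cytochrome oxidase subunit isoform, was found in 58 pericytes at 448 CPM, against 1.23 CPM in all other annotated cells. Vtn, which encodes vitronectin, stood at 153 CPM in 32 pericytes, against 0.147 CPM in other annotated cells.

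Of the genes with these patterns, Rgs5 and Rgs4 are adjacent on chromosome 1, 45.7 kb apart, and Kcnj8 and Abcc9 are adjacent on chromosome 6, 16.2 kb apart, with 0 annotated genes between the members of each pair. In the GENCODE M21 annotation of GRCm38 (mm10), Rgs5 spans chr1:169655501-169695813, Rgs4 chr1:169741477-169747642, Kcnj8 chr6:142564837-142571614, Abcc9 chr6:142587862-142702315, Notch3 chr17:32120820-32166852, Ndufa4l2 chr10:127514967-127517154 and Higd1b chr11:102835849-102838040. The 250 bases before the RefSeq start of both neighbour pairs and of Notch3 are shown so that the neighbours can be set side by side. The sequences are from RefSeq on GRCm38.p6, given 5′ to 3′ on the strand of the gene. They lie at chr1:169655251-169655500 (Rgs5, plus strand), chr1:169747643-169747892 (Rgs4, minus), chr6:142571615-142571864 (Kcnj8, minus), chr6:142702275-142702524 (Abcc9, minus) and chr17:32166891-32167140 (Notch3, minus). The RefSeq and GENCODE starts differ for Abcc9, whose window reaches into the GENCODE gene, and for Notch3, whose window lies further upstream of it. Ndufa4l2 and Higd1b are named only. Capitals mark matches to 3 motifs searched on both strands, which are the CArG box bound by serum response factor, the RBPJ core TGGGAA through which Notch acts, and the low oxygen core ACGTG.
Rgs5: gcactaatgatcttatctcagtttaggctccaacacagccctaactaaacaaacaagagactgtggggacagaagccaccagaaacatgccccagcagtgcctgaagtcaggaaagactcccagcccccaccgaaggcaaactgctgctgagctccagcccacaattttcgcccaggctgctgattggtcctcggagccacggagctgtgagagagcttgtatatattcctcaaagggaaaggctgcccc
Rgs4: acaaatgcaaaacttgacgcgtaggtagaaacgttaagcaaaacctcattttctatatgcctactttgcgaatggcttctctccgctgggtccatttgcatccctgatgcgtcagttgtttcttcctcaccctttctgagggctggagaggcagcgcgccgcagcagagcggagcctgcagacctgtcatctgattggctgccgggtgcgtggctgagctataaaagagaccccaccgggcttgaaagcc
Kcnj8: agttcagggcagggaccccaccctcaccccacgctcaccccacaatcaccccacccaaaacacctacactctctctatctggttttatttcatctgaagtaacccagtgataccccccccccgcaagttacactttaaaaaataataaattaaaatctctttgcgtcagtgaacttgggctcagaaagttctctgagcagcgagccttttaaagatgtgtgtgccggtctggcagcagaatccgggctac
Abcc9: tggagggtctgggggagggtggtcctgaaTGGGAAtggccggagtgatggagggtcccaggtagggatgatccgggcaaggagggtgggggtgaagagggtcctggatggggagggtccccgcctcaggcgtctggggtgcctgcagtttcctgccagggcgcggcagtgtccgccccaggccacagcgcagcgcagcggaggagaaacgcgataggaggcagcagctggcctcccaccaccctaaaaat
Notch3: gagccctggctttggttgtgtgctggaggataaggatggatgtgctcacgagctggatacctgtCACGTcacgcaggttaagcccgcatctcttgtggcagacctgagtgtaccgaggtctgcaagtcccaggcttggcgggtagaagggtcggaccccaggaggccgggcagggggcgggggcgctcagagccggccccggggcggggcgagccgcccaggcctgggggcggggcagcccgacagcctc

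Among these 5 windows the RBPJ core matched only in Abcc9, at −221 from the start, and the low oxygen core only in Notch3, at −186. The CArG box matched in none of them. The shares of all 32851 RefSeq promoter windows of this length with a match were 1.47% for the CArG box, 21.6% for the RBPJ core and 16.6% for the low oxygen core. A match of letters is a description of the window and no binding site.

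The genes with the highest ratios to all other annotated cells included several with few UMIs per cell. Ndst3, a heparan sulfate sulfotransferase, was found in 23 pericytes at 82.3 CPM, against 7 UMIs in all 12178 other cells. Gria2, an AMPA-type glutamate receptor subunit, was found in 22 pericytes at 130 CPM, against 15 UMIs in the others. Olfr558, an olfactory receptor gene that is among the 23 mural cell genes, stood at 99.3 CPM in 25 pericytes. Rasl12, a small GTPase of the Ras family, stood at 65.2 CPM in 18 pericytes, and Slc7a2, a cationic amino acid transporter, at 255 CPM in 37 pericytes, against 0.114 and 0.540 CPM in the others. The 15 highest ratios were held by these genes, Rgs5, Ndufa4l2, Higd1b, Abcc9, Vtn, Cox4i2, Heyl, Foxs1 and the unnamed transcripts RP23-296I18.1 and RP23-375N21.2. The lowest were those of Fgf9, Aldh1a1, Igkc, Jchain and Fmo2, which in the other cells stood between 57.7 and 1154 CPM.

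The same ratios were taken to each near type in turn. Against myocytes the highest ratios included those of Pdgfrb, Sept4, P2ry14, Cox4i2, Ebf1, Slc7a2 and Ndufa4l2, each with 1 to 7 UMIs in the 85 myocytes. The septin gene Sept4 stood at 340 CPM in 49 pericytes and at 115 CPM in endothelial cells. Against stromal cells the highest were Gja4, Gria2, Kcnj8, Abcc9, Olfr558, RP23-296I18.1, Rgs5 and Sept4. Against endothelial cells Cox4i2, Slc7a2, Rgs4, Higd1b, Cpxm2, P2ry14, Cspg4 and Ndufa4l2 led, with at most 5 UMIs each in that type. At the lower end stood Pln, Cnn1, Hmcn2, Smoc1 and Actg2 against myocytes, Aldh1a1, Lsamp, Hsd11b2, Crabp1 and Ccl7 against stromal cells, and Pecam1, Ccl21a, Igfbp3, Mmrn2 and Egfl7 against endothelial cells.

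Likeness to Rgs5 was measured as Pearson's r of log2(CPM + 1) over the 10 CO cell types, which share 1 library and differ in depth. The 8 genes most like it at 50 CPM or more in pericytes were Abcc9 (0.965), RP23-296I18.1 (0.934), Olfr558 (0.933), Higd1b (0.924), Vtn (0.918), Rasl12 (0.911), Pik3ca (0.910) and Hey2 (0.907). Pik3ca, the catalytic subunit of a lipid kinase, was present in all the types compared, at 87.9 CPM in pericytes and 44.7 CPM in myocytes.

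Most contractile genes stood lower in pericytes than in myocytes, a cluster that was formed on the same counts. Acta2, smooth muscle actin, was found in 48 pericytes with a lowest, median and highest count of 0, 1 and 165 UMIs, and its level was 1211 CPM, 9.73-fold below the 11786 CPM of myocytes. Myosin heavy chain Myh11 stood at 210 CPM in pericytes and 2419 CPM in myocytes, and Tagln at 933 and 12979 CPM. Of 24 contractile genes 23 could be compared with myocytes, of which 0 were at least 4-fold higher and 18 at least 4-fold lower in pericytes, against 6.83% and 3.02% of all genes. The median log2 ratio was −2.89. Some of the 23 could be compared only through their myocyte level, so this count and median are descriptions and no result. Against all other annotated cells 9 of 19 were higher (6.17% of all genes), against stromal cells 6 of 19 (5.39%) and against endothelial cells 14 of 20 (7.65%), with 0 lower in each. Cald1, which binds actin and restrains contraction, was the nearest to myocytes of those named here, at 1330 CPM in 73 pericytes and 2770 CPM in myocytes.

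Much of this contractile signal came from a few cells. The UMIs of Acta2, Tagln and Myh11 together numbered 0 in 14 pericytes, 1 to 9 in 48 and 10 or more in 13, with a highest count of 367. There were 5 cells annotated as pericytes with fewer than 2 UMIs of the 4 markers, a limit chosen after these counts were seen, at depths of 2741 to 18887 UMIs. These 5 cells held 191 of the 427 Acta2 UMIs, 210 of the 329 Tagln UMIs, 41 of the 74 Myh11 UMIs, all 73 Actg2 UMIs and all 29 Cnn1 UMIs. They held 1 UMI of Pdgfrb. Without them Acta2 stood at 751 CPM, Tagln at 379, Myh11 at 105, Pcp4 at 31.8 in place of 184, and Actg2 and Cnn1, which are genes of smooth muscle, at 0. The 8 myocyte markers summed to 1311 CPM in the 75 cells and 566 CPM in the 70 others, against 18797 CPM in myocytes. Most of the contractile UMIs of these 5 cells were in 1 of them. The cell with 18887 UMIs held 165 of Acta2, 179 of Tagln, 63 of Actg2 and 25 of Cnn1. Another held the remaining 10 Actg2 and 4 Cnn1 UMIs, together with 24 UMIs of endothelial markers. Others had only 4 and 8 UMIs of Acta2, Tagln and Myh11. Whether these 5 cells belong to another type was not tested.

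The other 70 cells had at least 7 marker UMIs each. Among them, 10 had 10 or more UMIs of Acta2, Tagln and Myh11, and carried between 8 and 47 Rgs5 UMIs with a median of 26.5. The remaining 60 carried between 7 and 82 Rgs5 UMIs with the same median of 26.5. The Acta2-rich pericytes were deeper, at a median of 5493 UMIs against 3794.5. As a share of the UMIs of a cell, Rgs5 ran from 0.163 to 0.862% with a median of 0.389% in the 10 cells, and from 0.147 to 1.72% with a median of 0.608% in the 60, so that the ranges overlapped. The part of depth in these counts was not tested. Myl9 (592 CPM), the desmin gene Des (360 CPM) and Cald1 (1324 CPM) remained in the 70 cells.

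**Figure D2:**
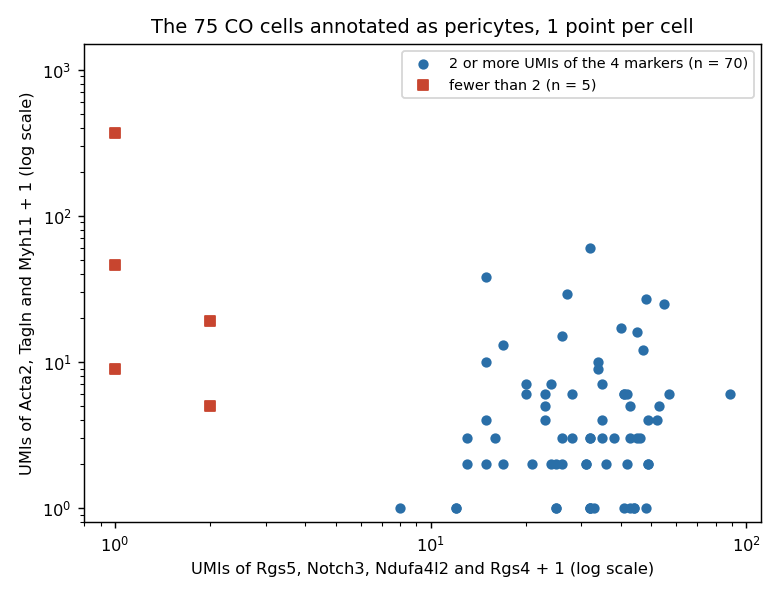
UMIs of Acta2, Tagln and Myh11 plus 1 (y axis, log scale) against UMIs of Rgs5, Notch3, Ndufa4l2 and Rgs4 plus 1 (x axis, log scale) in each of the 75 cells. The 5 cells with fewer than 2 marker UMIs (red squares) stand apart on the left, with the highest at 367 contractile UMIs, and the other 70 (blue circles) all have at least 7 marker UMIs.

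**Figure D3:**
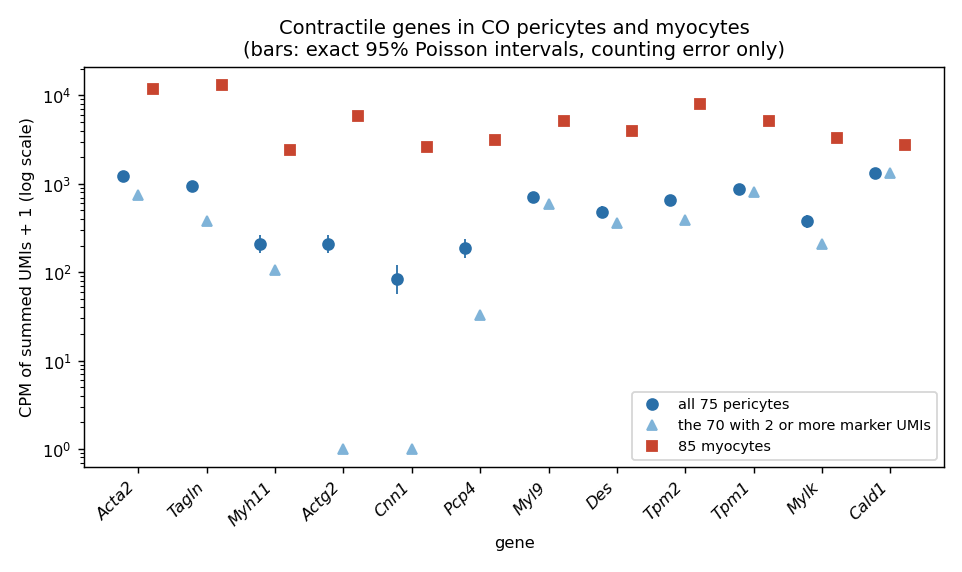
CPM of summed UMIs plus 1 (y axis, log scale) of 12 contractile genes in all 75 pericytes, in the 70 with 2 or more marker UMIs and in 85 myocytes, with exact 95% Poisson intervals as bars for the first and the last group. Every gene was higher in myocytes, Actg2 and Cnn1 fell to 0 CPM without the 5 cells, and Cald1 lay closest.

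Genes of cyclic GMP signalling, through which nitric oxide relaxes vessels, were also measured. Gucy1a3 and Gucy1b3, the subunits of soluble guanylate cyclase, were found in 65 and 55 pericytes at 519 and 281 CPM. Myocytes had 26.4 and 2.74 CPM of them, and stromal cells 9.54 and 10.6 CPM. Mesothelial cells had 175 CPM of Gucy1a3 but 1.70 CPM of Gucy1b3. Npr3, the natriuretic peptide clearance receptor, stood at 99.3 CPM in 21 pericytes and at 40.3 CPM in endothelial cells. Of 13 genes of this pathway, 8 could be compared with all other annotated cells, of which 6 were at least 4-fold higher and 0 lower, against 6.17% and 2.82% of all genes. Against stromal cells 4 were higher and 2 lower of 9 (5.39% and 4.94% of all genes). Against endothelial cells 6 were higher and 1 lower of 8 (7.65% and 9.59%), and against myocytes 4 higher and 0 lower of 7 (6.83% and 3.02%). Pde5a, which breaks cyclic GMP down, and Mrvi1, a substrate of the cyclic GMP kinase, did not differ by 4-fold from myocytes, at 90.8 against 81.2 CPM and at 162 against 243 CPM.

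Of the RGS family, whose members end G protein signals, 23 genes had counts and 5 could be compared with all other annotated cells, against which 6.17% of all genes were higher and 2.82% lower. Rgs3, Rgs4, Rgs5 and Rgs16 were at least 4-fold higher and 0 lower, but Rgs4 and Rgs5 are among the 4 markers that named the cluster and are no result here. Rgs3 stood at 258 CPM in pericytes and 332 CPM in stromal cells, and Rgs16 rested on 8 pericytes, at 79.4 CPM against 157 CPM in endothelial cells. Of 24 Notch pathway genes 6 could be compared with all other cells, and Notch3, the target genes Hey2 and Heyl, and Dtx3 were higher with 0 lower, of which Notch3 is again such a marker. Heyl stood at 70.9 CPM in 18 pericytes, Hey2 at 59.6 CPM in 16, and Dtx3, a ubiquitin ligase of the Deltex family, at 315 CPM in 56. Heyl and Hey2 could be compared with all other cells only through their pericyte level. Against endothelial cells 4 Notch genes were higher and 4 lower of 11, where 7.65% and 9.59% of all genes were, the lower ones being Notch4, Jag2, Dll4 and Mfng. Notch4 had no UMI in pericytes and 59.7 CPM in endothelial cells. Such genes could be compared only through the endothelial level, so this count is no result.

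A list of 34 genes of the signals that pass between mural and endothelial cells holds endothelial receptors by design. For 19 of them the level was high enough to be compared with endothelial cells, and for 7 with myocytes, so that many entered through the endothelial level and their count is no result. Of the 19, Pdgfrb was at least 4-fold higher in pericytes and 13 were lower, against 7.65% and 9.59% of all genes. Pdgfb, which encodes the ligand of Pdgfrb, stood at 128 CPM in endothelial cells and had 2 UMIs in pericytes. Angpt1, a ligand of the endothelial receptor Tek, also had 2 UMIs in the 75 pericytes, so that its level could hardly be measured at this depth.

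Receptors for vasoactive signals formed a varied set. Of 34 receptor genes with counts 11 could be compared with all other annotated cells, and 8 were at least 4-fold higher with 0 lower, against 6.17% and 2.82% of all genes. Several of the 8, such as Agtr2, entered only through their pericyte level, so the count is no result. Against myocytes 7 were higher and 2 lower of 13 (6.83% and 3.02% of all genes), and against stromal cells 5 were higher and 4 lower of 12 (5.39% and 4.94%). P2ry14, a receptor for UDP-sugars, was found in 59 pericytes at 655 CPM, but stromal cells had 442 CPM. The endothelin receptors Ednra and Ednrb stood at 130 CPM (32 cells) and 230 CPM (40 cells), with Ednrb at 142 CPM in endothelial cells and Ednra at 0.380 CPM. The adrenergic receptor Adra2a was found in 33 pericytes at 130 CPM and in no myocyte, at least 47.7-fold higher against the floor of 3 UMIs. Agtr2, a receptor for angiotensin II, stood at 85.1 CPM in 17 pericytes and at 7.16 CPM in stromal cells. Npy1r, F2r and Ramp1 completed the set, each below 100 CPM. The oxytocin receptor gene Oxtr was at least 4-fold lower than in both myocytes and stromal cells.

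Of the ion channel and calcium handling genes, 14 could be compared with all other annotated cells, of which 7 were higher and 0 lower, against 6.17% and 2.82% of all genes. Against myocytes 4 of 16 were higher and 2 lower (6.83% and 3.02% of all genes), with a median log2 ratio of −0.03. Besides Kcnj8 and Abcc9 these included the calcium-activated chloride channel gene Ano1, at 247 CPM in 46 pericytes, and Kcne4, Cacna1c and Trpc1, at 56.7 to 68.1 CPM. Kcne4, Cacna1c and Trpc1 could be compared with all other annotated cells only through their pericyte level. Mesothelial cells had 120.4 CPM of Ano1. The voltage-gated calcium channel gene Cacna1c was level with myocytes, at 56.7 against 52.0 CPM, while Kcnmb1 and Pln, a channel subunit and a regulator of the calcium pump, were at least 4-fold lower than in myocytes.

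Matrix genes are given as those of the basement membrane and those of the interstitium. Col4a1 and Col4a2, the main collagen IV chains, stood at 1018 CPM in 69 pericytes and 599 CPM in 66, near the 1094 and 654 CPM of endothelial cells and above the 232 and 142 CPM of myocytes. Of 14 basement membrane genes compared with all other cells 5 were higher and 0 lower, namely these 2 and Col18a1, Tinagl1 and Vtn, against 6.17% and 2.82% of all genes. Of 28 interstitial matrix genes compared with stromal cells, Aspn and Timp3 were higher and 15 were lower, against 5.39% and 4.94% of all genes, with a median log2 ratio of −2.10. Some of the 28 could be compared only through their stromal level, so the count lower and the median are no result. Col1a1 stood at 437 CPM in pericytes and 4182 CPM in stromal cells. Timp3, an inhibitor of matrix metalloproteinases, was found in 70 pericytes at a median of 8 and at most 41 UMIs, and stood at 2159 CPM, against 907 CPM in endothelial cells and 232 CPM in stromal cells. Itga1, an integrin chain that binds collagens and laminins, stood at 340 CPM in 59 pericytes and at 389 CPM in endothelial cells.

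Pericytes carried transcripts of the receptors for estrogen and progesterone. Esr1 was found in 56 pericytes at up to 6 UMIs and stood at 289 CPM, against 275 CPM in myocytes, 233 in stromal cells and 32.7 in endothelial cells. Pgr stood at 173 CPM in 31 pericytes, against 256, 435 and 20.9 CPM in the same order. No UMI of Esr2 was found. Neither Esr1 nor Pgr was 4-fold higher or lower than in myocytes, stromal cells or all other annotated cells, and both were higher than in endothelial cells, at ratios of 8.85 for Esr1 and 8.27 for Pgr. In both receptors the pericytes stood with the muscle and stroma and away from the endothelium.

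Among genes of glycolysis and low oxygen, 19 could be compared with all other annotated cells and 4 were higher with 0 lower, against 6.17% and 2.82% of all genes. These were Epas1, Ndufa4l2, Cox4i2 and Higd1b, and Ndufa4l2 is among the 4 markers that named the cluster. Epas1, the oxygen-regulated factor HIF-2α, stood at 323 CPM in 56 pericytes and at 331 CPM in endothelial cells, against 12.9 CPM in mesothelial cells. The general isoforms of the respiratory subunits were present beside the low-oxygen ones, with Cox4i1 at 1024 CPM in pericytes and 1251 CPM in other annotated cells, and Ndufa4 at 445 and 1232 CPM. Of 20 cell cycle genes 2 could be compared with the other annotated cells, and 0 were higher or lower. Of 20 immediate early genes compared 1 was higher and 0 lower, which is near the 6.17% and 2.82% of all genes.

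Markers of other cell types were measured in the same cells. Of 12 endothelial markers 10 had a UMI, Cldn5 and Tie1 had none, and the list summed to 462 CPM, with 0, 2 and 24 UMIs as the lowest, median and highest per cell, against 7608 CPM in endothelial cells. Most of that sum came from Emcn (133 CPM, 29 cells) and Esam (210 CPM, 40 cells). The 9 markers other than these and Flt1 held 28 UMIs, of which 15 were in 1 cell, and summed to 79.4 CPM, against 5394 CPM in endothelial cells. Of the 29 Emcn cells 0 had a UMI of Pecam1, Cldn5 or Tie1. This says little, since Pecam1 was found in 1 pericyte and Cldn5 and Tie1 in none. Of the Emcn cells 28 had at least 12 UMIs of the 4 pericyte markers. The remaining Emcn cell was 1 of the 5 marker-poor cells, with 0 UMIs of the 4 markers and 24 endothelial UMIs, the highest count. In the 34 pericytes with fewer than 2 endothelial UMIs, Rgs4 stood at 310.4 CPM in place of 227, Cox4i2 at 627 in place of 448 and Timp3 at 1707 in place of 2159. Of the 5 marker-poor cells 4 were among these 34, where Tagln stood at 1471 CPM in place of 933, Actg2 at 425 in place of 207 and Cnn1 at 169 in place of 82.3. The part of endothelial RNA in these levels was not tested further.

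The 8 lymphocyte markers had no UMI, and myeloid, lymphatic and Schwann cell markers summed to 11.3, 5.67 and 22.7 CPM. The 10 stromal markers all had UMIs and summed to 3821 CPM, between 0 and 236 UMIs per cell with a median of 8, against 13108 CPM in stromal cells and 21625 CPM in mesothelial cells. Most of it was Dcn, which encodes the proteoglycan decorin and was found in 69 pericytes at 2323 CPM. After thinning Dcn was present in 87.3% of pericytes but also in 66.1% of endothelial cells, which had 383 CPM. Pdgfra, the defining receptor of stromal cells, had 4 UMIs, all in 1 cell. The 8 mesothelial and 7 epithelial markers, all with UMIs, summed to 426 and 1155 CPM, against 4058 and 5294 CPM in their own types. All 4 red cell genes had UMIs and summed to 2641 CPM, between 2 and 28 UMIs in every pericyte, against 1606 CPM in the other annotated cells. The part of these transcripts in the pericyte levels was not tested.

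Cells with pericyte markers were also sought outside the annotation, as cells with at least 2 UMIs of at least 2 of the 4 markers. Of the 75 pericytes 60 met this rule. In the CO library 61 of 20134 cells without a cell type met it, as did 16 of 1326 stromal cells, 9 of 6866 mesothelial cells, 3 Ctla2a cells and 1 each of the endothelial cells, myocytes and epithelial cells. The cells without a cell type are those not marked as passing the authors' quality filter. Outside the annotated pericytes there were thus 92 such CO cells against 60 within. Of the 92, 61 had not passed that filter and 31 were annotated as another type. The 61 cells without a type had between 2315 and 79280 UMIs with a median of 6120, and carried Rgs5 at 2694 CPM, Higd1b at 334 CPM and Abcc9 at 325 CPM. Markers of other cell types stood in them at 3809 CPM for Dcn, 218 for the epithelial keratin gene Krt18 and 159 for the mesothelial gene Upk3b, against 2323, 156 and 96.5 CPM in the annotated pericytes. They also carried red cell transcripts, with a median of 11.8% of their UMIs from haemoglobin genes, against 0.286% in the annotated pericytes. In the DES library 0 of 16312 cells met the rule. A count of 0 allows up to 0.0184% here.

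Over the whole DES library the genes named here ran from 0 CPM for Higd1b to 7.14 CPM for Notch3. The library had 22 UMIs of Rgs5 in 16 cells, 28 of Ndufa4l2 in 14 cells, 8 of Abcc9 and 0 of Higd1b among 288919190 UMIs. Kcnj8 had 145 UMIs in 134 cells, Pdgfrb 263 in 233 cells, Cox4i2 333 in 307 cells and Notch3 2063 in 1521 cells. Of the Notch3 UMIs, 81.3% were in cells annotated as epithelial, where its level was 9.52 CPM, against 4.56 CPM in CO epithelial cells. These DES epithelial cells held 176170962 of all UMIs of the library, over which Notch3 stood at 7.14 CPM. The annotation of the DES library held 5 endothelial cells and 1 stromal cell, against 341 and 1326 in CO. With 1 library per condition these values carry no test.

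The whole sections gave a measurement that had no part in naming the pericytes. Per the study, tissue for the DES sections was checked for adenocarcinoma, and the blocks were cored to areas of interest. The differences below are thus between chosen areas and not between whole uteri. The study also reported a tissue fold in CO section B and limited clusters in DES section B, and mostly used the A sections. The sections held between 9117099 and 12506177 UMIs over 1357 to 1834 spots. UMIs were summed per section and compared with edgeR's quasi-likelihood test and Benjamini-Hochberg adjustment over 14098 genes. Rgs5 stood at 96.3 and 119.6 CPM in the CO sections A and B and at 33.1 and 38.5 CPM in the DES sections A and B. Both DES sections lay below both CO sections, and the difference was −1.79 ± 0.20 (log2 fold DES against CO, SE, n = 2 sections per group, edgeR adjusted p = 0.0229). In a bulk measure such as this, fewer cells of a type and less RNA per cell cannot be told apart. With 2 sections against 2 an exact test over sections cannot pass 0.05, so that these p-values depend on the spread edgeR shares between genes.

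Notch3 moved the other way, from 14.6 and 22.5 CPM in CO to 71.2 and 56.9 CPM in DES (log2 fold 1.58 ± 0.26, edgeR adjusted p = 0.0402). Without DES section A the log2 fold was 1.44 (edgeR adjusted p = 0.225), and without DES section B it was 1.70 (edgeR adjusted p = 0.184). The call was then lost, as were those of all the other called genes of these lists. Ndufa4l2 did not separate the groups, at 13.8 and 25.0 CPM against 11.7 and 13.9 CPM (edgeR adjusted p = 0.238). Rgs4 was 52.6 and 16.2 CPM in CO and 10.1 and 13.2 CPM in DES (edgeR adjusted p = 0.165). DESeq2 called Rgs4 lower (adjusted p = 0.0206). Its edgeR log2 fold was −1.78 over all sections, −2.40 without CO section B and −0.66 without CO section A, so its size rested largely on CO section A. Of the 4 markers of this cell type 1 was thus called lower and 1 higher by edgeR, and 2 lower and 1 higher by DESeq2.

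Of the 23 mural cell genes, 8 were lower in DES sections and 1 higher by this test, against 2.63% and 2.67% of all genes, with a median log2 fold of −1.38 beside −0.01 for all genes. Both DES sections lay below both CO sections for 15 and above them for 3. How many of all genes separated in this way was not counted, so these numbers are no result. Kcnj8 fell from 30.9 and 56.5 CPM to 11.8 and 10.5 CPM (−2.17 ± 0.33, edgeR adjusted p = 0.0360), and Higd1b from 23.6 and 22.8 CPM to 6.03 and 7.09 CPM (−2.02 ± 0.22, edgeR adjusted p = 0.0219). Kcnj8 was not confined to the spots rich in Rgs5, as the spot clusters below show. Cspg4, Mcam, Anpep, Des, Pdlim3 and Art3 were the others called lower. Tbx2, a T-box transcription factor, rose from 5.36 and 9.25 CPM to 50.9 and 41.5 CPM. Pdgfrb (log2 fold −1.04, edgeR adjusted p = 0.118), Abcc9 (−1.38, 0.0650) and Heyl (1.53, 0.0678) did not pass in edgeR and passed in DESeq2 (adjusted p = 0.0276, 0.0158 and 0.0317). DESeq2 called 11 of the 23 genes lower and 2 higher, and of all genes it called 948 lower and 800 higher.

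None of the genes of the lists used here that were called lower or higher passed without DES section A or without DES section B. Hardly any gene of the whole table did, so this loss is not particular to the lists. Rgs5 then gave log2 folds of −1.67 without section A and −1.96 without section B, Kcnj8 of −2.23 and −2.12, and Higd1b of −1.90 and −2.20. Of the genes called higher, Tbx2 then gave 2.33 and 2.56, and Hes1 1.63 and 1.53. With a CO section left out Rgs5 kept its call, at −1.92 and −1.66.

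Genes of muscle and stroma moved in the same sections. Of 24 contractile genes 20 were lower in DES and 0 higher (median log2 fold −1.86), and of the 8 myocyte markers 6 were lower and 0 higher. By the same test 2.63% of all genes were lower and 2.67% higher. At an unadjusted p under 0.05 and by DESeq2 the number higher was also 0 in both lists. Myh11 fell by 2.39 on the log2 scale (SE 0.23, edgeR adjusted p = 0.0212). In the CO library myocytes carried several of the mural genes called lower, with Des at 3917 CPM against 477 in pericytes, Mcam at 71.1 against 179, Cspg4 at 31.0 against 159, Kcnj8 at 23.7 against 471 and Higd1b at 7.30 against 576. Of the 12 endothelial markers 0 were called in either direction by edgeR, 8 were lower at an unadjusted p under 0.05 and 3 by DESeq2. For 8 both DES sections lay below both CO sections, and the median log2 fold was −0.89. Of the 10 stromal markers 4 were lower and 0 higher by edgeR, 7 were lower and 0 higher by DESeq2, and 8 lower and 0 higher at an unadjusted p under 0.05. Both DES sections lay below both CO sections for 8 of them, with a median log2 fold of −1.29. DESeq2 called 948 genes lower and 800 higher in all. How many of all genes separated the groups, or had an unadjusted p under 0.05, was not counted. Such counts of markers are therefore no result. Stromal cells carry Pdgfrb, Ebf1 and P2ry14 too. The part of muscle and stromal content in the differences of the mural genes was not tested. Set against the 12 endothelial markers, Rgs5 was still lower in DES, with 353 and 295 UMIs per 1000 endothelial UMIs in CO and 135 and 155 in DES. This ratio was planned for the 4 markers summed and not for Rgs5 alone. For the sum of the 4 markers the groups overlapped, at 649 and 452 in CO and 516 and 493 in DES. Without Notch3, a choice made after these values were seen, the other 3 markers summed to 596 and 397 in CO and 225 and 264 in DES and did not overlap. Of these 3, Rgs5 alone separated the groups. Ndufa4l2 overlapped, at 50.4 and 61.7 in CO and 48.0 and 55.9 in DES. Rgs4 did too, at 193 and 40.0 in CO and 41.3 and 53.1 in DES.

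**Figure D4:**
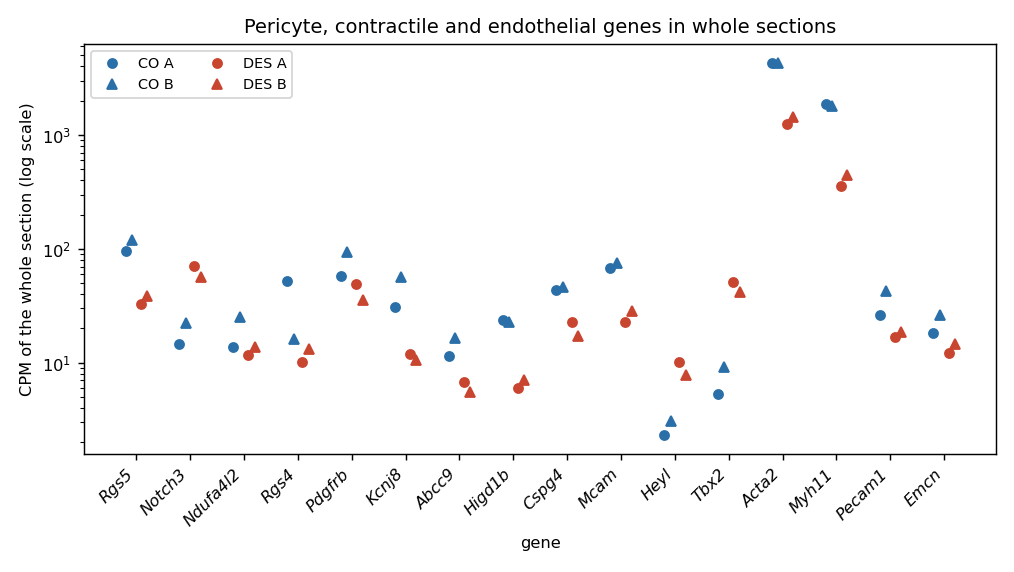
CPM of the whole section (y axis, log scale) of 16 pericyte, contractile and endothelial genes in the CO (blue) and DES (red) sections A (circles) and B (triangles), 1 point per section. Rgs5, Kcnj8 and Higd1b lie lower in both DES sections, Notch3 and Tbx2 higher, and Ndufa4l2 overlaps at 13.8 CPM in CO section A and 13.9 CPM in DES section B.

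The functional groups described in the single cells were followed in the sections, where edgeR called 2.63% of all genes lower and 2.67% higher. DESeq2 called 948 genes lower and 800 higher in all, and the share of all genes at an unadjusted p under 0.05 was not counted. Among channel and calcium genes 10 of 26 were lower and 0 higher by edgeR (1 higher at an unadjusted p under 0.05 and 1 by DESeq2), including Kcne4 (−2.29 ± 0.23, edgeR adjusted p = 0.0212). The basement membrane list had 7 lower and 3 higher of 27, and Col4a1 fell from 512 and 682 CPM to 122 and 84.2 CPM. Of 11 cyclic GMP genes 0 were called in either direction by edgeR, while 4 were lower at an unadjusted p under 0.05 and 3 by DESeq2. Of 22 Notch pathway genes 1 was lower and 4 higher, with Hes1 at 67.7 and 60.1 CPM in CO and 220.4 and 226 CPM in DES. Of the vasoactive receptors 4 were lower and 2 higher of 28, against these shares of all genes, Ednrb among the lower (−2.28 ± 0.33, edgeR adjusted p = 0.0333). Esr1 did not pass (−0.40, edgeR adjusted p = 0.215).

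Within each section the authors grouped the spots into clusters, and a spot covers several cells. Rgs5 was detected in 42.5 and 37.8% of the spots of the CO sections and in 13.5 and 17.5% of those of the DES sections. Among clusters of at least 20 spots, Rgs5 ran from 29.5 to 405 CPM in CO section A and from 33.8 to 425 CPM in CO section B. In the DES sections it ran from 4.0 to 215 CPM and from 12.1 to 404 CPM. The cluster with the most Rgs5 held 101, 188, 80 and 44 spots in the order CO A, CO B, DES A, DES B. It ranked 2, 4, 1 and 1 among the 8 to 10 clusters of its section by the summed endothelial markers. By the summed myocyte markers it ranked 7, 7, 2 and 2. Spearman's rho of Rgs5 with the endothelial markers over clusters was 0.70, 0.75, 0.98 and 1.00, and with the myocyte markers −0.10, −0.13, 0.93 and 0.78. These are descriptions over clusters of 1 section, which share its library and differ in depth. The study took the top CO clusters, 8 in A and 6 in B, as stroma. In DES it took clusters 4 in A and 5 in B, at 60.1 and 159 CPM of Rgs5, while the top ones were 7 and 10. The top clusters of the 2 groups are thus not the same tissue. DES A cluster 9, of 9 spots and 527 CPM, fell under the limit of 20 spots. In the CO sections the clusters richest in Rgs5 ranked higher by endothelial than by muscle markers. In the DES sections they ranked 1 by the former and 2 by the latter. Kcnj8 differed from Rgs5. In CO A it stood at 85.8 CPM in cluster 4 (Acta2 at 13350 CPM) and 55.5 in cluster 8. In CO B it was 113 in cluster 1 (Acta2 at 10723) and 81.3 in cluster 6. In DES A it was 80.2 in cluster 6 (Acta2 at 11242) and 10.0 in cluster 7. DES B had 52.2 in cluster 8 (Acta2 at 11036) and 54.6 in cluster 10. Rgs4 was higher in these Acta2-rich clusters than in the top ones in both CO sections, and lower in both DES sections.

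**Figure D5:**
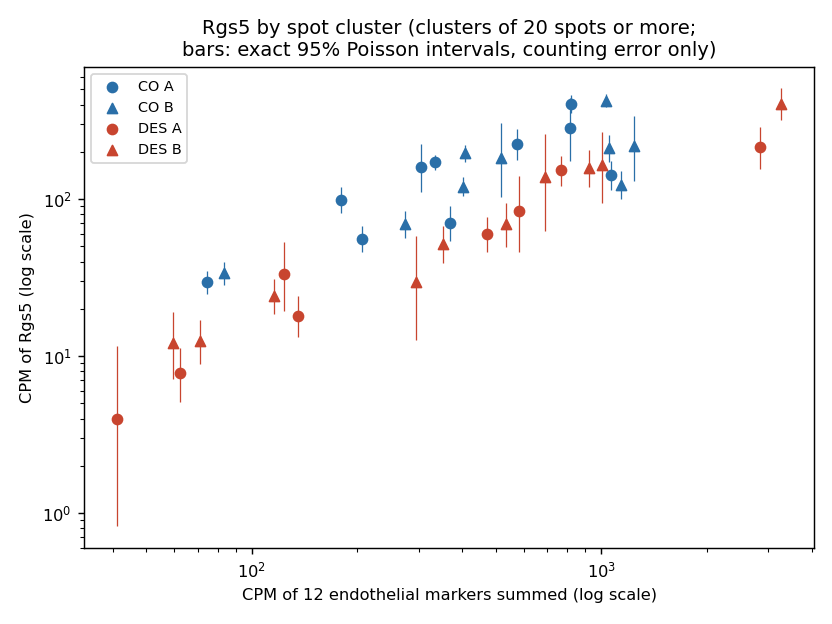
CPM of Rgs5 (y axis, log scale, bars are exact 95% Poisson intervals) against the summed CPM of 12 endothelial markers (x axis, log scale) in spot clusters of at least 20 spots, CO sections in blue and DES sections in red, 1 point per cluster. Rgs5 rises with the endothelial markers in each section, up to 425 CPM in CO section B, and the top clusters of CO section A (405 CPM) and DES section B (404 CPM) are level in Rgs5 at 817 and 3271 CPM of endothelial markers. The study took the former as its stromal cluster, and in DES section B it took another cluster as stroma.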

How the data were processed

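Single cells of 1 CO and 1 DES library and 2 CO and 2 DES Visium sections were analysed. Per the labels and the study's methods, the authors counted UMIs on mm10 with Cell Ranger 3.0.1 and Space Ranger 1.2.2, after bcl2fastq 2.20.0.422, used DropletUtils to look for swapped barcodes and scran to take out doublets, and named cell types after clustering with Seurat. The deposited values of both kinds of table are raw counts, not normalized. Shares of cells are shares of those recovered after enzymatic dissociation. 1 further pericyte in the annotation has no counts and was not used, and 0 columns of other samples were present. Fold changes of single-cell sums used all 24077 genes and called a gene at 4-fold or more, with 50 CPM in the higher group and 10 UMIs in both together. Percentages of genes called are over the genes that could pass. Ratios have exact conditional binomial intervals, levels exact Poisson intervals and shares Clopper-Pearson intervals, all at 95%.

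Section sums were compared with edgeR 4.0.16 in R 4.3.3 (TMM factors, filterByExpr, quasi-likelihood test, adjusted p under 0.05), with DESeq2 1.42.0 as an alternative. On simulated sections with 200 genes changed 4-fold, edgeR recovered 95% of them. The changed genes were drawn from the more abundant ones, and all genes were given 1 common spread. The share does not carry over to genes of low level or wider spread. Named genes were the 4 markers, members of 27 gene lists (up to 6 examples each), the 15 highest and 5 lowest ratios against all other annotated cells, the 8 highest and 5 lowest against each of 3 types, and the 8 genes most like Rgs5. Rgs21 and Adra1d had no counts, and some genes that these rules name are not reported here. The members and lists were chosen with earlier results of these data known. Python 3.11.15, numpy 2.4.6, scipy 1.17.1, pandas 2.3.3 and matplotlib 3.10.9 were used.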

Additional observations from a re-analysis of the deposited data

How the results depend on the processing

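The pericyte share was 0.232% of all CO cells and 2.67% without mesothelial and epithelial cells. Without the 50 CPM floor, genes past the fold numbered 1109 higher and 401 lower against other annotated cells, 470 and 270 against myocytes, 788 and 342 against stromal cells, and 685 and 664 against endothelial cells. The lower count against other annotated cells was 168 with each cell weighted equally and 193 in pericytes with fewer than 2 endothelial UMIs, against 104. Leaving out the 5 cells with few markers (chosen after seeing the data) moved 11 of 27 levels, mostly of contractile genes, beyond their counting interval. At least 3 markers with a UMI, in place of the rule used, held for 70 CO cells outside the annotated pericytes in place of 92. In the sections 371 genes were lower and 376 higher with edgeR. DESeq2 gave 948 lower and 800 higher. With 1 section left out, where the lone section was assumed to vary like the other group, the counts ranged from 0 to 1508 lower and from 3 to 1311 higher, and the log2 fold of Vtn was −2.05 without CO section A and reversed to 0.27 without CO section B. With the section letter as a replicate block 229 were lower and 298 higher. Notch3, Cspg4, Rasl12, Ednrb, Kcnmb1, Pcp4 and Dcn were among those that lost their calls, and contractile genes called went from 20 to 16. The letters did not pair the sections (correlation of deviations −0.03). A gene with 1 UMI in all 75 cells stands near 3 CPM.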
